A study of Manihot esculenta with 32 samples.

Results

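Genes for proteins that protect plant cells from stress or serve their routine upkeep were examined: metallothionein 2B (MT2B), polyubiquitin 10 (UBQ10), ascorbate peroxidase 1 (APX1), a dehydrin and high mobility group B2 (HMGB2). The 5 genes were chosen by their measured level, since the study listed annotated genes whose mean reached at least 300 FPKM in every tissue or organ sampled. FPKM, the number of sequenced fragments scaled by transcript length and library size, allows levels to be compared between genes of different length. The rule set a floor under each sample type but used no difference between sample types. The 5 genes lie on 6 of the 38593 loci in the deposited tables, of which 32732 carry a gene name, and 35 named loci reached 300 FPKM in every sample type.

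Poly(A) mRNA isolated from total RNA of cassava (Manihot esculenta) cultivar TME204 was sequenced in 32 libraries of 11 sample types. Storage root (n = 2), leaf blade, leaf midvein, petiole, stem, lateral bud, fibrous root, shoot apical meristem (SAM) and root apical meristem (RAM) came from glasshouse plants 3 months old, and friable embryogenic callus (FEC) and organized embryogenic structures (OES) came from tissue culture on the auxin picloram. All types other than storage root had 3 biological replicates. The labels give an age of 7 weeks for FEC, for which the methods give another age, and of 4 weeks for OES. OES grew on DKW/Juglans salts, and FEC on Gresshoff and Doy medium with added tyrosine and moxalactam. SAM and RAM libraries were pools of 6 dissected meristems, made with another RNA kit, less RNA and less fragmentation enzyme than the rest, so that these steps and the tissue cannot be told apart. Samples were dissected by hand from organs without sharp borders.

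Metallothioneins are small cysteine-rich proteins that bind metal ions such as copper and zinc and can scavenge reactive oxygen. Polyubiquitin genes encode ubiquitin units joined head to tail, which are cut apart and attached to other proteins, often to mark them for the proteasome. UBQ10 is widely used as a reference gene and as a source of promoters in Arabidopsis. Ascorbate peroxidases reduce hydrogen peroxide to water with ascorbate, and Arabidopsis APX1 is the main cytosolic form. Dehydrins are hydrophilic, largely unfolded proteins that accumulate in many plants during drought, cold and seed maturation. HMGB proteins bind and bend DNA in chromatin.

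MT2B (Manes.01G174200, chromosome 1) was measured on a locus that also holds Manes.01G174400, so that the value belongs to the locus and cannot be split between both genes. APX1 (Manes.04G026800, chromosome 4), the dehydrin (Manes.09G138100, chromosome 9) and HMGB2 (Manes.05G124100, chromosome 5) each had 1 locus of their own. UBQ10 (Manes.04G111000, chromosome 4) had 2 loci in the tables, and the locus with most fragments, annotated from 24506528 to 24508774 on assembly AM560-2 version 6.1, is called UBQ10 below. By the paper's account, reads that map to several genes were left out. This can lower the value of a gene with close copies, such as a ubiquitin or a metallothionein gene. Fragments of the 2 UBQ10 loci may instead have been divided between them, as described below.

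The dehydrin is the member whose upstream sequence the study cloned, from variety TME419, to drive a reporter gene, and part of that fragment is shown as the sequence placed upstream of the reporter; no upstream sequence of the other 4 genes was used here. The paper reports that its cloned promoters drove the reporter in every cassava tissue stained, except the promoter of another gene. Stem, storage root and OES were not among the stained tissues, and staining there was marked as present or absent. How the dehydrin fragment's sequence relates to the levels in the 11 sample types was not tested. The cloned fragment has 1302 bases, of which 25.1% are G or C. Positions 1016 to 1215 are shown, 5′ to 3′, with the letters TATAAATA in capitals, the forward-strand match of a TATA-box-like motif nearest to the gene end of the fragment, and 87 more bases follow it in the fragment.
Dehydrin upstream fragment: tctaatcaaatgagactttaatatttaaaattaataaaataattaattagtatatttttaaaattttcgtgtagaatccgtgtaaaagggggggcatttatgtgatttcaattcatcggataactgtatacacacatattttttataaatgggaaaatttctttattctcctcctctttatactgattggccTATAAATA
In the last 300 bases of the fragment, searched on both strands, TATAAATA occurred 1 time, and it was in 1 of the 4 cassava fragments cloned in the same way (25%). ACGTG, the core of the abscisic acid response element, and CCGAC, the core of the drought response element, had 0 matches in that window or in the whole dehydrin fragment, and each was in the window of 2 of the 4 fragments (50%). The motifs do not overlap each other. The paper mentions a further cloned promoter, which was not among the fragments searched. A match is a description of letters and not of a binding site.

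Libraries held between 4175114 and 24123487 fragments on named loci (median 11656666). No 2 libraries had identical values, and all 32 libraries were most alike to another library of their own type (mean r to their own type 0.903 to 0.969). The lateral bud replicate 2 library had the lowest of these values. Photosystem and light-harvesting genes were highest in leaf and midvein. Manes.05G015700, a photosystem I subunit, averaged 2557 FPKM in leaf, 210 FPKM in stem, 147 FPKM in petiole and under 1 FPKM in both root samples. The light-harvesting gene Manes.17G066800 averaged 13024.5 FPKM in leaf, 3370 FPKM in stem and 5.26 FPKM in fibrous root. The other photosystem I gene, Manes.01G239100, averaged 118 FPKM in leaf and 0.501 FPKM in stem. The embryogenic regulator NF-YB6 (Manes.08G068800) averaged 329 FPKM in FEC and 70.2 FPKM in OES, against at most 0.75 FPKM in the plant organs. Of 4 root markers, nitrate transporter 2.4 (Manes.08G009300) was highest in fibrous root (4.42 FPKM) and root hair specific 19 (Manes.12G111100) in RAM (65.0 FPKM), whereas root hair specific 10 and WOX5 were highest in storage root. Of 4 KNOTTED-like genes, markers of the shoot meristem, 2 were highest in SAM (76.8 and 36.3 FPKM) and 2 in storage root (173 and 61.2 FPKM).

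The 5 genes were abundant in all 11 sample types but followed different patterns. MT2B and UBQ10 were highest in storage root and lowest in RAM, APX1 was highest in RAM and lowest in midvein, the dehydrin was highest in lateral bud and lowest in storage root, and HMGB2 was highest in SAM and lowest in fibrous root. With libraries rescaled to the same sum of FPKM, leaf was lowest for APX1 and stem for HMGB2, and for HMGB2 storage root had rank 4 in place of 2 and leaf rank 7 in place of 4. Together the 6 loci took 1.72% ± 0.213 of the named fragments in storage root (SD, n = 2) and between 0.372% in FEC and 0.998% in fibrous root in the other types. These are bulk samples, in which fewer cells of a type and less RNA per cell cannot be told apart.

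**Figure D1:**
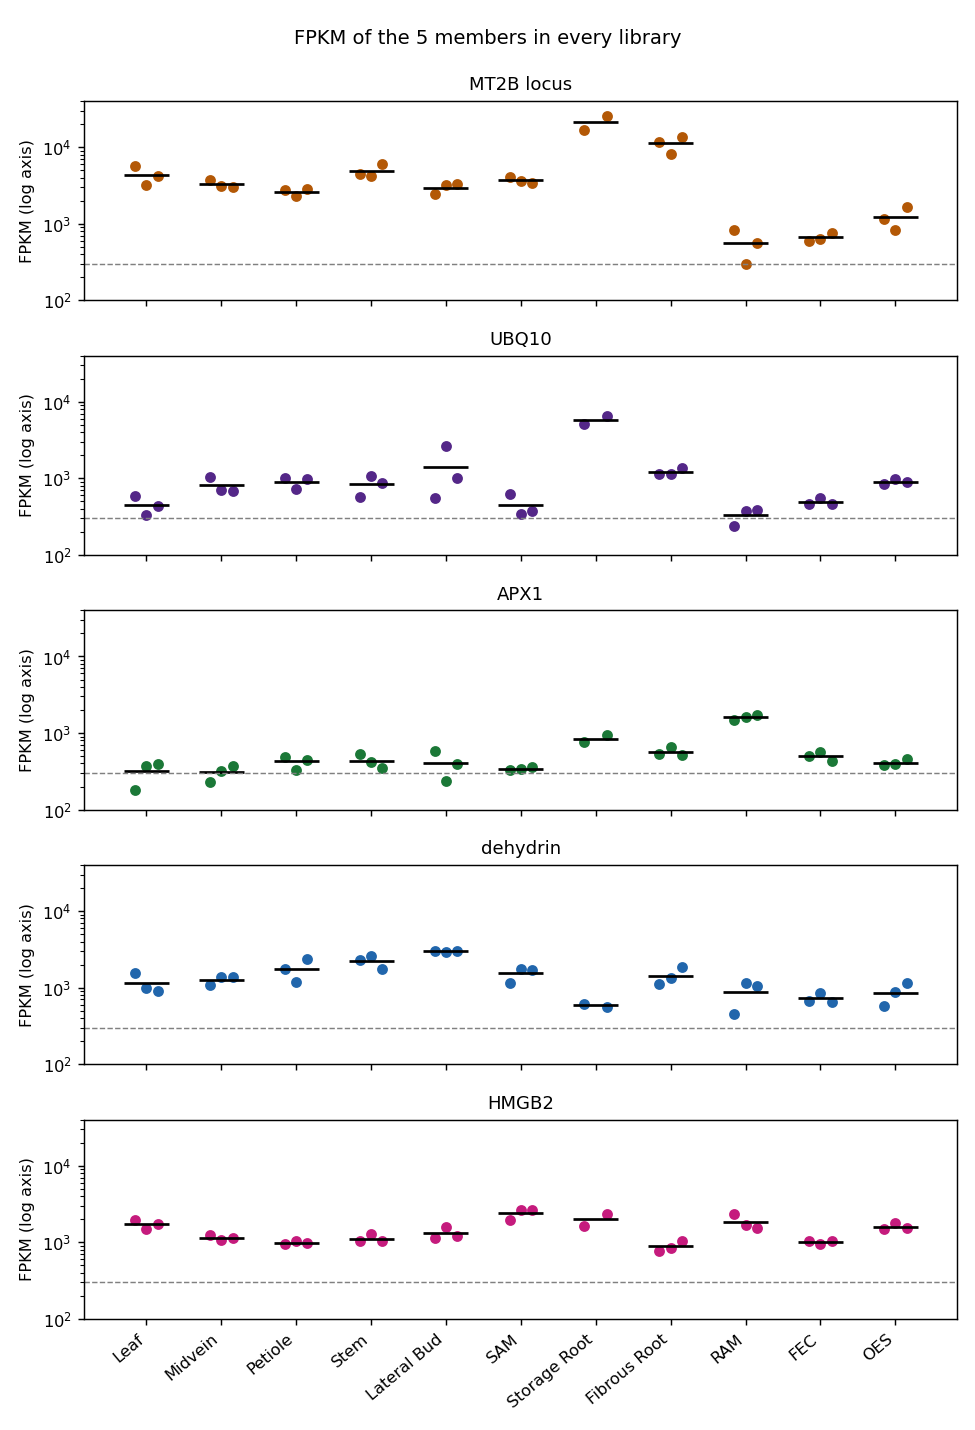
FPKM of each gene (log axis) in every library of the 11 sample types; points are libraries, black bars are means and the dashed line marks 300 FPKM. MT2B spans 295 to 25353 FPKM, whereas HMGB2 stays between 774 and 2641 FPKM.

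The floor of 300 FPKM held for means and not for each library. MT2B had 295 FPKM in RAM replicate 2, UBQ10 had 239 FPKM in RAM replicate 1, and APX1 had 180, 228 and 235 FPKM in leaf replicate 1, midvein replicate 1 and lateral bud replicate 2. The dehydrin and HMGB2 were above 300 FPKM in all 32 libraries. Closest to the floor, the lowest sample-type mean was 302.7 FPKM for Manes.14G167300 and 298.8 FPKM for Manes.04G031500, both in midvein. Of the 5 genes, APX1 came closest, with 306 ± 73.8 FPKM in midvein (SD, n = 3).

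**Figure D2:**
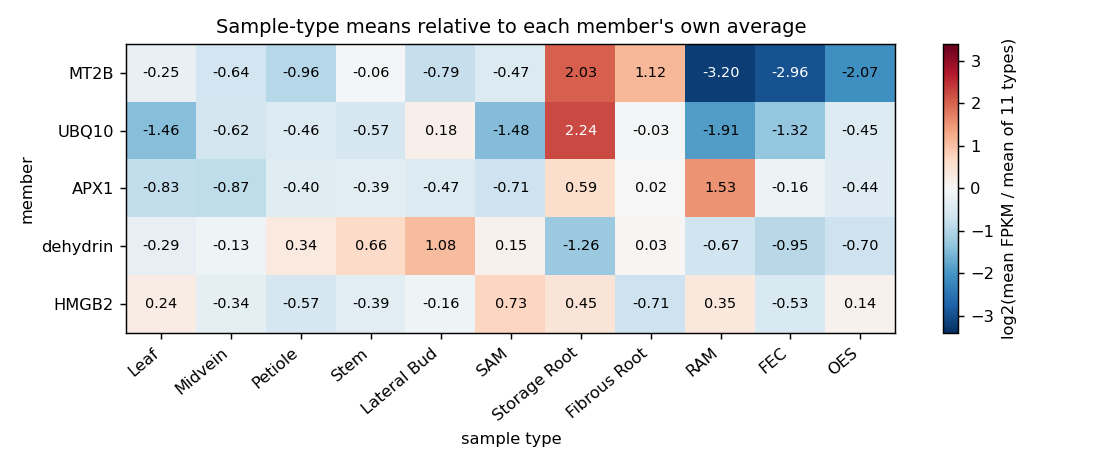
Mean FPKM of each gene in each sample type over that gene's average of the 11 type means, as log2; red is above and blue below the gene's own average. The largest departures are MT2B in RAM (−3.20), FEC (−2.96) and OES (−2.07), and UBQ10 (2.24) and MT2B (2.03) in storage root.

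MT2B was the most abundant of the 5 genes, with rank 12 by mean FPKM among named loci. Its levels were 16824 and 25353 FPKM in storage root and 11892, 8213 and 13572 FPKM in fibrous root. Stem followed with 4524, 4246 and 6009 FPKM. No stem library reached the lowest fibrous root library. Leaf, SAM, midvein, lateral bud and petiole lay between 2323 FPKM in petiole replicate 2 and 5662 FPKM in leaf replicate 1. FEC had 595, 638 and 755 FPKM, OES had 1153, 837 and 1682 FPKM, and RAM had 831, 295 and 556 FPKM. From stem to petiole each type overlapped the next, and FEC overlapped RAM, but storage root, fibrous root, petiole and OES each stood clear of the next type below them. The storage root mean was 37.6 times the RAM mean.

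For each pair of sample types, fragment counts entered edgeR's quasi-likelihood test, p-values were adjusted over all loci by the Benjamini-Hochberg method, and a pair was called at an adjusted p below 0.05. Over all loci, 60.9% of the tests in the 55 pairs were called, and 24.7% were called with a ratio of mean FPKM above 4. All loci include those low in a sample type, whereas the genes studied were chosen for a high level in every type. Shares above 4-fold are therefore no like-for-like background for them, here and below. MT2B differed in 39 of 55 pairs, 25 of them above 4-fold. Storage root was higher in 10 of its 10 pairs, where 30.5% of all loci tested were higher, and fibrous root was higher in 9 of 10 (background 30.1%). RAM was lower in 9 of 10 pairs (background 32.4%), FEC in 9 of 10 (32.6%) and OES in 8 of 10 (31.9%). RAM and FEC were not told apart (edgeR adjusted p = 0.455). None of the pairs among leaf, midvein, petiole, stem, lateral bud and SAM was called for MT2B.

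UBQ10 had 5181 and 6551 FPKM in storage root. In the other 10 types it lay between 239 FPKM in RAM replicate 1 and 2642 FPKM in lateral bud replicate 2. Both storage root libraries were therefore above every other library. Lateral bud was the most scattered type, with 548, 2642 and 1023 FPKM. Its mean of 1404 ± 1098 FPKM (SD, n = 3) was 785 ± 336 FPKM without replicate 2 (n = 2), the library that was also lowest for APX1 in its type and least like its own type. Leaf (586, 333 and 437 FPKM), SAM (620, 347 and 370 FPKM) and FEC (469, 562 and 465 FPKM) overlapped each other and, for leaf and SAM, the RAM libraries (239, 371 and 383 FPKM). Fibrous root had 1156, 1138 and 1361 FPKM. OES had 849, 972 and 901 FPKM, and petiole, stem and midvein overlapped it. UBQ10 differed in 29 of 55 pairs, 11 of them above 4-fold. Storage root was higher in 10 of 10 pairs, with log2 differences of 1.92 to 4.03, and RAM and SAM were each lower in 7 of 10 (backgrounds 32.4% and 30.6%).

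The second UBQ10 locus was far less abundant, between 10.3 and 1790 FPKM. Fragments of the 2 loci added up to a whole number in all 32 libraries (within 0.1 fragment), while the fragments of each locus alone were fractional in most libraries. The authors' software may therefore have divided a shared set of fragments between the loci. The second locus held 0.818% to 26.1% of the sum. Its part averaged 21.3% ± 4.11 in SAM and 15.6% ± 3.09 in storage root (SD, n = 3 and 2), and 3.44% ± 0.963 in OES (n = 3). It scattered widely within types, as in fibrous root, where it had 158, 10.3 and 125 FPKM. Storage root was again highest, with 1005 and 1790 FPKM, and was called in 10 of 10 pairs. Among the other 45 pairs only 3 were called. With the FPKM of both loci summed, storage root was 19.3 times RAM, against 17.7 times for the main locus.

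**Figure D3:**
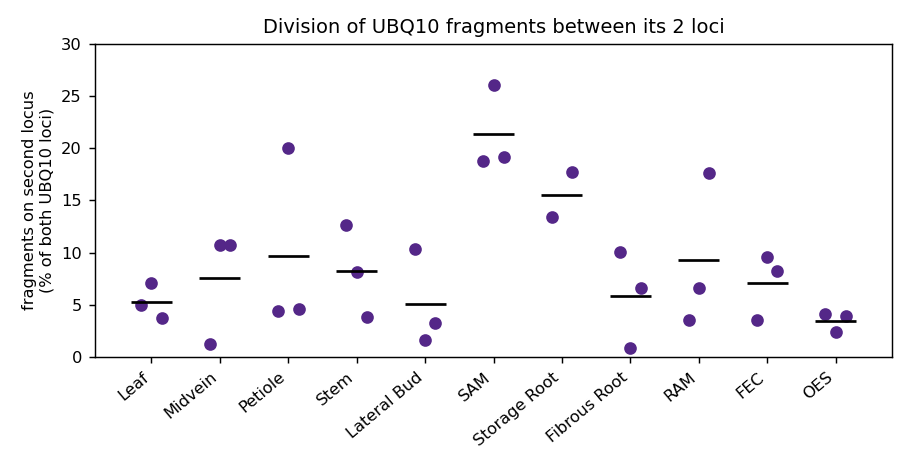
Percent of all UBQ10 fragments that the authors' software placed on the second locus, in each library by sample type; points are libraries and bars are means. SAM has the highest mean (21.3%), and within petiole, RAM and midvein the libraries differ widely.

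APX1 had 1472, 1631 and 1742 FPKM in RAM. The next type was storage root with 758 and 932 FPKM. All RAM libraries were above all others. At the low end were SAM (328, 342 and 358 FPKM), leaf (180, 375 and 388 FPKM) and midvein (228, 315 and 375 FPKM). Fibrous root had 538, 650 and 516 FPKM and did not overlap storage root, and from fibrous root downwards each type overlapped the next. RAM was higher in 10 of 10 pairs, where 35.8% of all loci were higher, with log2 differences of 1.07 to 2.52 and edgeR adjusted p of at most 0.00513. Storage root was higher in 7 of 10 pairs, lower than RAM, and not called against FEC or fibrous root. APX1 differed in 22 of 55 pairs in all, 3 of them above 4-fold.

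The dehydrin had 2971, 2879 and 3045 FPKM in lateral bud, the tightest group of the 5 genes relative to its mean (SD 83.0 FPKM). Stem had 2274, 2580 and 1757 FPKM and petiole 1762, 1174 and 2386 FPKM. Lateral bud did not overlap stem, but the pair was not called (edgeR adjusted p = 0.165). SAM had 1158, 1762 and 1721 FPKM, and fibrous root, midvein, leaf, RAM, OES and FEC followed, each overlapping the next. RAM was the most scattered, with 459, 1143 and 1037 FPKM. Storage root had 614 and 556 FPKM and lay below all 3 FEC libraries (675, 853 and 643 FPKM). Lateral bud was higher in 9 of 10 pairs (background 29.6%), and storage root was lower in 7 of 10 (background 35.6%), the other 3 being FEC, OES and RAM. Of 55 pairs 27 were called, 2 of them above 4-fold.

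HMGB2 had 1943, 2639 and 2641 FPKM in SAM, 1613 and 2359 FPKM in storage root and 2334, 1687 and 1543 FPKM in RAM. Leaf had 1926, 1503 and 1731 FPKM and OES 1492, 1774 and 1533 FPKM. These 5 types overlapped in sequence. At the low end, petiole had 934, 1041 and 979 FPKM and fibrous root 774, 850 and 1049 FPKM. Each of the 10 neighbouring pairs in the order of means overlapped, and the highest mean was 2.70 times the lowest. Still, 30 of 55 pairs were called, 0 of them above 4-fold. SAM was higher in 8 of 10 pairs (background 30.3%), RAM in 6 of 10 (background 35.8%) and storage root in 6 of 10 (background 30.5%). Fibrous root was lower in 6 of 10 (background 31.3%). Both PCNA2 genes, whose product clamps DNA polymerase to DNA in dividing cells, were also highest in SAM (140 and 137 FPKM) and high in RAM (127 and 83.7 FPKM) and FEC (71.2 and 109 FPKM), but at most 10.6 FPKM in storage root and at most 3.77 FPKM in leaf. In OES the PCNA2 genes had 50.1 and 66.4 FPKM. HMGB2 had rank 2 of 11 in storage root, 4 in leaf, 5 in OES and 9 in FEC. With libraries rescaled to the same sum of FPKM, these ranks were 4, 7, 2 and 6. Whether the number of dividing cells has a part in the HMGB2 levels was not tested.

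As a single test of any difference among the 11 sample types, all 5 genes passed edgeR's quasi-likelihood test, with adjusted p between 3.5e-12 for MT2B and 2.16e-06 for the dehydrin. Of all loci in the fit 95.8% passed as well. By the size of the F statistic MT2B had rank 5944 and the dehydrin rank 20830 of 27855 loci.

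Evenness was described by the coefficient of variation (CV), the SD of FPKM over 32 libraries divided by their mean. HMGB2 had a CV of 35.8%, the dehydrin 51.6%, APX1 68.9%, MT2B 115% and UBQ10 122%. Among the 35 loci of at least 300 FPKM in every type, whose median CV was 70.1% (range 31.8% to 133%), HMGB2 ranked 5 from the most even, the dehydrin 12, APX1 15, MT2B 31 and UBQ10 32. Among 962 named loci above 40 FPKM in every library, a wider group with a median CV of 49.9%, HMGB2 ranked 226 and UBQ10 ranked 937. HMGB2 was thus more even than the median of both groups, and MT2B and UBQ10 were less even than the median of both. The dehydrin lay close to the wider median. Without storage root replicate 2, the CV of UBQ10 was 98.7% and that of MT2B 97.0%.

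**Figure D4:**
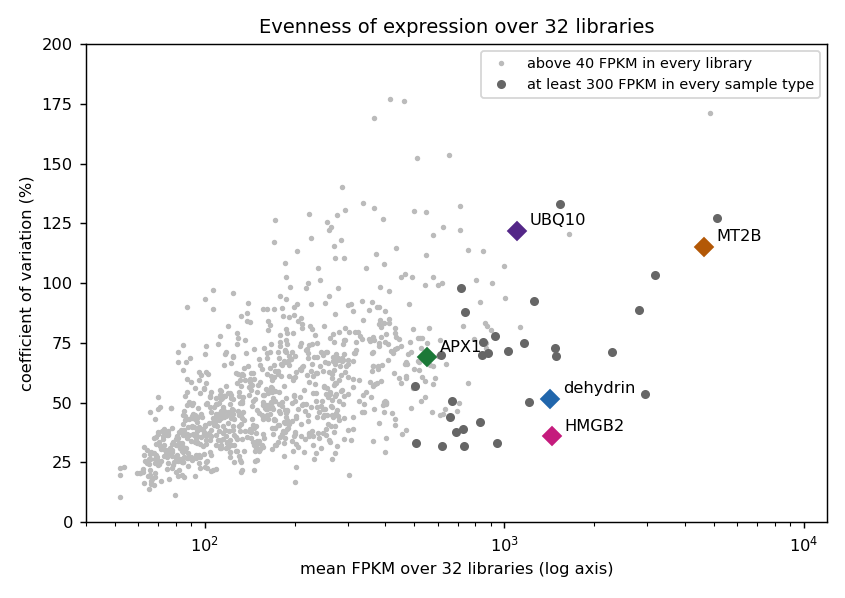
CV (%) over 32 libraries against mean FPKM (log axis); light points are named loci above 40 FPKM in every library, dark points the loci of at least 300 FPKM in every sample type, and diamonds the 5 genes. HMGB2 (35.8%) and UBQ10 (122%) mark the lower and upper end of the 5.

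The study compared storage root, the swollen organ that fills with starch, with fibrous root, which takes up water and nutrients. Of the 5 genes 4 were called: UBQ10, HMGB2 and MT2B were higher in storage root, and the dehydrin was lower. UBQ10 averaged 5866 ± 969 FPKM in storage root and 1218 ± 124 FPKM in fibrous root (SD, n = 2 and 3), a log2 fold change of 2.24 ± 0.41 (SE; edgeR adjusted p = 5.3e-05), and it was also called with the fragments of both loci summed (edgeR adjusted p = 1.46e-05). HMGB2 averaged 1986 ± 528 FPKM in storage root and 891 ± 142 FPKM in fibrous root, a log2 fold change of 1.21 ± 0.23 (edgeR adjusted p = 6.6e-05). The dehydrin averaged 585 ± 41.0 FPKM in storage root and 1430 ± 369 FPKM in fibrous root, a log2 fold change of −1.22 ± 0.35 (edgeR adjusted p = 0.0045). For these 3 genes and MT2B, no storage root library overlapped a fibrous root library. The share of all loci without overlap was not computed, so nothing is read from this.

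MT2B averaged 21088 ± 6031 FPKM in storage root and 11226 ± 2741 FPKM in fibrous root, a log2 fold change of 0.94 ± 0.35 (edgeR adjusted p = 0.025). APX1 averaged 845 ± 123 FPKM in storage root and 568 ± 71.9 FPKM in fibrous root without overlap, but was not called, with a log2 fold change of 0.54 ± 0.31 (edgeR adjusted p = 0.136). Of all 23420 loci tested 59.3% were called, 28.1% higher in storage root and 31.2% higher in fibrous root, so that 4 of 5 is near the background. Above 4-fold, 1 of the 5 genes (UBQ10) was called and 22.9% of all loci, a share that includes loci low in either type. The call for MT2B was lost without storage root replicate 2 (0.61, edgeR adjusted p = 0.263) or fibrous root replicate 2 (0.72, adjusted p = 0.116), and that for the dehydrin without storage root replicate 2 (−1.16, adjusted p = 0.0537).

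The deposited FPKM of named loci summed to 1381969 and 1388456 in storage root, against 816361 to 1015066 in fibrous root. When each library was rescaled to the same sum, which moved the median log2 difference of all loci by −0.54, limma gave 0.28 for MT2B (adjusted p = 0.602), 0.52 for HMGB2 (adjusted p = 0.168) and −0.054 for APX1 (adjusted p = 0.893), while UBQ10 stayed higher and the dehydrin lower in storage root. The limma calls over all loci were then 2897 higher in storage root and 10721 higher in fibrous root, against 6891 and 7146 with limma on the deposited scale.

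**Figure D5:**
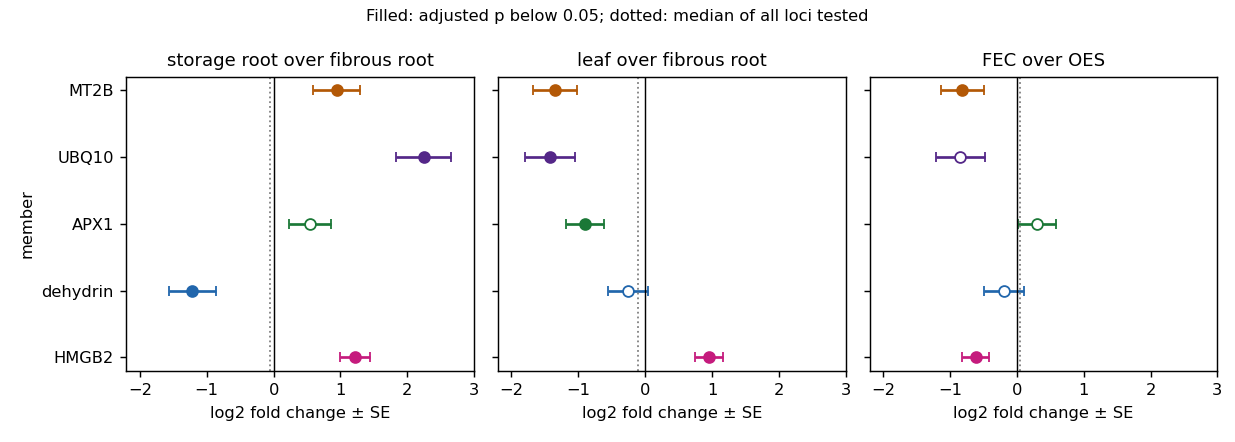
Log2 fold change (points) with SE (bars) of the 5 genes in 3 comparisons; filled points passed an adjusted p below 0.05 and the dotted line is the median of all loci tested. UBQ10 stands highest in storage root over fibrous root (2.24) and lowest in leaf over fibrous root (−1.42).

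Leaf was compared with fibrous root as a photosynthetic against an underground organ. MT2B, UBQ10 and APX1 were lower in leaf and HMGB2 was higher. MT2B averaged 4331 ± 1253 FPKM in leaf and 11226 ± 2741 FPKM in fibrous root (SD, n = 3 each), a log2 fold change of −1.35 ± 0.33 (SE; edgeR adjusted p = 0.00082). UBQ10 averaged 452 ± 127 FPKM in leaf and 1218 ± 124 FPKM in fibrous root, a log2 fold change of −1.42 ± 0.38 (edgeR adjusted p = 0.0018). Neither gene had a leaf library as high as any fibrous root library. APX1 averaged 314 ± 117 FPKM in leaf and 568 ± 71.9 FPKM in fibrous root, with −0.91 ± 0.28 (edgeR adjusted p = 0.0071). HMGB2 averaged 1720 ± 212 FPKM in leaf and 891 ± 142 FPKM in fibrous root, with 0.96 ± 0.21 (edgeR adjusted p = 0.00025). The dehydrin libraries overlapped, with 1144 ± 349 FPKM in leaf and 1430 ± 369 FPKM in fibrous root, and −0.26 ± 0.30 (edgeR adjusted p = 0.463).

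Of all 24723 loci tested 65.6% were called, 30% higher in leaf and 35.6% higher in fibrous root, beside 4 of the 5 genes (1 higher and 3 lower in leaf). Above 4-fold it was 0 of 5 genes and 29.7% of loci, a share that includes loci low in either type. The call for APX1 was lost without leaf replicate 1 (−0.62, edgeR adjusted p = 0.0509), the library with its lowest value. FPKM sums were 1595334 to 1665591 in leaf, against 816361 to 1015066 in fibrous root. Rescaled to the same sum, which moved the median of all loci by −0.72, HMGB2 was no longer called (0.10, limma adjusted p = 0.761) and the dehydrin was lower in leaf (−1.19, limma adjusted p = 0.0037), while MT2B, UBQ10 and APX1 stayed lower. The limma calls over all loci were then 4193 higher in leaf and 14262 higher in fibrous root, against 7529 and 8632 with limma on the deposited scale.

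FEC, a loose proliferating callus that can be transformed, was compared with the OES from which it is raised. MT2B and HMGB2 were lower in FEC, both by a small margin. MT2B averaged 663 ± 82.7 FPKM in FEC and 1224 ± 427 FPKM in OES (SD, n = 3 each), a log2 fold change of −0.82 ± 0.32 (SE; edgeR adjusted p = 0.041). HMGB2 averaged 1011 ± 46.5 FPKM in FEC and 1600 ± 152 FPKM in OES, a log2 fold change of −0.62 ± 0.21 (edgeR adjusted p = 0.016). UBQ10 averaged 498 ± 54.96 FPKM in FEC and 907 ± 61.8 FPKM in OES without overlap, and missed the threshold with −0.84 ± 0.37 (edgeR adjusted p = 0.065). It passed when the spread was estimated from FEC and OES alone (−0.89, adjusted p = 0.00087) and with DESeq2 (−0.85, adjusted p = 0.039).

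APX1 (0.30 ± 0.28, edgeR adjusted p = 0.402) and the dehydrin (−0.19 ± 0.30, edgeR adjusted p = 0.630) overlapped between FEC and OES and were not called. Among all 22927 loci tested 46.2% were called, 23.9% higher in FEC and 22.3% higher in OES, beside 2 of the 5 genes, both higher in OES. Above 4-fold it was 0 of 5 genes and 13.1% of loci, a share that includes loci low in either type. The MT2B call was lost without FEC replicate 1 or 2 or OES replicate 1 or 3 (adjusted p 0.0683 to 0.237), the HMGB2 call without FEC replicate 2 or OES replicate 2 (0.0611 and 0.0634), and both with limma. FEC and OES were not compared at matched ages or on the same medium, so that tissue, age and medium cannot be told apart. The 3 comparisons share 1 fit, and the fibrous root libraries serve in the first and the second.

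Relatives of the 5 genes were taken from the annotations of genes that the study had called in these same samples, so that their unevenness was selected for and their direction is no independent evidence. The loci of Manes.08G079000, Manes.08G091800 and Manes.05G130500 also hold Manes.08G079100, Manes.08G091900 and Manes.05G130700, in that order. Their values belong to the locus, as for MT2B. Among 3 other metallothionein genes, the metallothionein 2A gene Manes.08G079000 was higher in storage root (946 ± 263 FPKM) than in fibrous root (27.4 ± 24.5 FPKM; log2 fold change 5.12, edgeR adjusted p = 4.9e-08), the metallothionein 3 gene Manes.03G110500 was lower (13.0 ± 4.56 FPKM in storage root and 245 ± 49.1 FPKM in fibrous root; −4.13, edgeR adjusted p = 5.5e-07), and the other metallothionein 2A gene, Manes.02G133200, was not called (5690 ± 1513 FPKM in storage root and 4540 ± 693 FPKM in fibrous root). In leaf against fibrous root, 2 were higher in leaf (background 30%) and 1 was lower (background 35.6%). Metallothionein 3 had 5174 ± 2008 FPKM in leaf but 2.28 FPKM in RAM. In FEC, Manes.08G079000 had 461 ± 105 FPKM, against 18.5 ± 0.791 FPKM in OES (3.61, edgeR adjusted p = 3.3e-06), and metallothionein 3 was also higher in FEC, whereas MT2B was lower.

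Ubiquitin extension protein 1 (Manes.08G027400), whose Arabidopsis counterpart joins ubiquitin to a ribosomal protein, was higher in storage root, as was UBQ10 (371 ± 8.18 FPKM in storage root and 82.2 ± 28.5 FPKM in fibrous root; 2.21, edgeR adjusted p = 8.7e-08). It was not called in leaf against fibrous root or in FEC against OES. Thylakoidal ascorbate peroxidase (Manes.02G165100), which serves the chloroplast, had 85.3 ± 26.5 FPKM in leaf and 0.676 ± 0.335 FPKM in fibrous root (6.90, edgeR adjusted p = 1.5e-12), the opposite direction to APX1. Of 3 other ascorbate peroxidases, 2 were higher in leaf than in fibrous root (background 30%) and 2 were higher in FEC than in OES (background 23.9%). Both counts include ascorbate peroxidase 2 (Manes.08G002700), which was near the floor, with 1.33 ± 1.58 FPKM in leaf and 1.95 ± 1.98 FPKM in FEC. Each of these SDs is above its mean. Ascorbate peroxidase 3 (Manes.01G147300) was the only 1 tested between the roots. Its level was lower in storage root, near the floor, with 0.220 FPKM there and 3.01 FPKM in fibrous root (−2.49, edgeR adjusted p = 0.0019). The sole other dehydrin listed, xero 1 (Manes.02G098200), averaged 7.79 ± 9.02 FPKM in FEC and 1.10 ± 0.730 FPKM in OES (edgeR adjusted p = 0.032), with an SD in FEC above its mean. HMGB1 (Manes.08G091800) was higher in leaf (161 ± 19.9 FPKM) than in fibrous root (68.9 ± 13.5 FPKM), as HMGB2 was, but it was also higher in FEC (51.8 ± 7.35 FPKM) than in OES (8.99 ± 3.85 FPKM), where HMGB2 was lower.

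A further 7 antioxidant enzyme genes were listed, which break down hydrogen peroxide or superoxide or recycle ascorbate. In storage root against fibrous root 2 of the 4 tested were higher (background 28.1%). Among them was a catalase 2 gene (Manes.05G130500), with 1101 ± 349 FPKM in storage root and 224 ± 23.1 FPKM in fibrous root (2.26, edgeR adjusted p = 8.1e-08). In leaf against fibrous root 6 of 6 were higher in leaf, where 30% of all loci tested were higher. The catalase 2 gene Manes.02G113300 had 1275 ± 277 FPKM in leaf and 0.208 ± 0.113 FPKM in fibrous root. In FEC against OES 4 of 6 were higher in FEC (background 23.9%), 1 was higher in OES (background 22.3%) and 1 was not called. The gene higher in OES was Fe superoxide dismutase 2 (Manes.06G129100), with 45.3 ± 1.17 FPKM in FEC and 105 ± 6.51 FPKM in OES. Over the 3 comparisons 31 of 41 tests of relatives were called, beside 59.3%, 65.6% and 46.2% of all loci in storage root against fibrous root, leaf against fibrous root and FEC against OES; the relatives had been listed because they were called in these data, so nothing is read from that count. With libraries rescaled, 0 of the 31 changed direction, by the sign of the difference in mean log2(FPKM + 1) alone and without a test. Some differences were then small, as for HMGB1 in leaf over fibrous root (0.38, beside an edgeR log2 fold change of 1.30).

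The profiles of the 5 genes over the 11 type means had little in common. On log2(FPKM + 1), Pearson's r was 0.72 between MT2B and UBQ10 (Spearman's rho 0.44), both high in storage root, and −0.46 between APX1 and the dehydrin, and the other 8 pairs lay between −0.32 and 0.21. All points share the same libraries, and the 11 types are not independent of each other. Among 6778 loci of at least 10 FPKM in every type, those most like MT2B were Manes.06G023700, Manes.02G114800 and Manes.01G236900 (r = 0.94, 0.94 and 0.92). For UBQ10 they were the locus of Manes.01G044500 and Manes.01G044600, Manes.13G019800 and Manes.16G017200 (r = 0.96 for all 3), the last of which spans 22.3 FPKM in RAM to 3032 FPKM in storage root. For APX1 they were Manes.06G166900, Manes.02G062200 and Manes.12G038400 (r = 0.98, 0.96 and 0.96). Manes.02G062200 placed the 11 types in the same order as APX1 and reached 616 FPKM in RAM. The closest profiles to the dehydrin were less alike: Manes.03G120500, Manes.07G107200 and Manes.05G033000 (r = 0.85, 0.83 and 0.82). For HMGB2 they were Manes.18G093400, Manes.08G050500 and Manes.18G003900 (r = 0.94, 0.91 and 0.91). The files give no annotation for these genes.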

How the data were processed

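Poly(A) mRNA was isolated from total RNA, and 32 libraries were sequenced on a shared Illumina lane. After cleaning with Trimmomatic 0.32, the authors aligned reads to AM560-2 version 6.1 with TopHat2 (2.0.10 in the submitters' processing notes, another version in the paper), assembled loci with Cufflinks 2.2.1 and obtained values from Cuffdiff 2.2.1. Cuffdiff scaled the libraries before the authors' FPKM were computed. Of the deposited estimated counts of fragments, 79.7% of values above 0 were whole (within 1e-05). A deposited signal of scaled fragments is the count times 1 factor per library and was used only to relate fragments to FPKM. A table that repeats the FPKM was not used.

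Counts were rounded and tested with edgeR 4.0.16 (quasi-likelihood test, TMM factors 0.720 to 1.15, 11 type means over 32 libraries, 21 residual degrees of freedom, Benjamini-Hochberg adjustment) in R 4.3.3. Named loci entered a comparison if either type averaged 1 FPKM or more; unnamed loci, with 1.73% to 5.76% of fragments, were left out. limma 3.58.1 on log2(FPKM + 1) or log2(FPKM + 0.1) and DESeq2 1.42.0 were alternatives, with other filters, rescaled libraries, a replicate block, and each library left out. Fold changes from limma are on the log2(FPKM + pseudocount) scale. Those from edgeR come from fragment counts and can differ from the ratio of the mean FPKM printed beside them. Python 3.11.15 with pandas 2.3.3, numpy 2.4.6 and matplotlib 3.10.9 was used for the rest. The tests were tested on simulated data. Replicates are biological per the study, but the labels do not say whether each came from a separate plant or culture.

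The 5 genes and all lists were chosen with earlier results of these data known. All 5 were described in full; relatives were named by annotation, and the 3 loci most like each gene by Pearson's r over type means. The reference gene table did not match the cassava gene IDs, so relatives come from annotations in the study's supplements, which cover only genes called on these samples. Upstream sequence was taken from the study's list of cloned fragments.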

Additional observations from a re-analysis of the deposited data

How the results depend on the processing

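Leaving the second UBQ10 locus aside, 223 fold changes of the 5 genes were recomputed under alternatives, over 15 pairs of gene and comparison. Of these, 196 kept their direction and their side of the threshold, 22 lost the call, 3 gained it and 2 changed sign. The causes were not tested. In storage root against fibrous root, MT2B lost its call with limma on log2(FPKM + 1) or log2(FPKM + 0.1) (0.91 with both), with libraries rescaled to a sum of 1000000 (0.28) and with only these 2 types in the fit (0.92). Rescaling also ended the call of HMGB2 (0.52) and turned APX1 to −0.054. Leaving out 1 library at a time gave 0.61 to 1.21 for MT2B and −1.33 to −0.99 for the dehydrin. In leaf against fibrous root, rescaling gave −1.19 for the dehydrin, now called, and 0.10 for HMGB2, no longer called, and leaving out 1 library gave −1.07 to −0.62 for APX1. In FEC against OES, MT2B lost its call with both limma settings (−0.83) and rescaled (−0.78), and HMGB2 likewise (−0.66 and −0.61), whereas UBQ10 gained one with DESeq2 (−0.85) and with only these 2 types (−0.89). Leaving out 1 library gave −1.04 to −0.52 for MT2B, −0.66 to −0.54 for HMGB2, −0.41 to 0.063 for the dehydrin, which changed sign without OES replicate 3, and −0.077 to 0.67 for the second UBQ10 locus, which changed sign without FEC replicate 2. Rescaling raised the ratio of highest to lowest type to 6.79 for APX1, with leaf lowest, and 7.52 for the dehydrin. Calls over all loci numbered 13895, 16208 and 10594 in the 3 comparisons and 5353, 7342 and 2992 above 4-fold. Between FEC and OES they numbered 6964 with a filter of 10 FPKM, which leaves fewer loci to test. The sum of both UBQ10 loci was an alternative chosen after seeing the data and changed no call.

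Same-numbered replicates did not deviate together in the comparisons made (correlations −0.112 to 0.113 over 8 pairs). With so few libraries per type, this cannot show whether same-numbered samples shared a source. With a replicate block the calls numbered 13865, 16327 and 10783, and no call of the 5 genes changed. Storage root had 2 libraries, which limits every value that rests on it.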
